A study of Homo sapiens with 12 samples.

Results

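The plasminogen activator system was taken as 5 genes, of which 4 were measured: PLAU, PLAUR, PLAT and SERPINE2. They were found by symbol on probe sets with a single gene symbol, among 17958 genes measured in this way. For SERPINB2, which encodes plasminogen activator inhibitor type 2, the probe table used here names no probe set, and the gene was not analysed. Each of the measured genes had 1 such probe set. A further probe set that lists PLAU together with an overlapping open reading frame was not used. The genes lie on different chromosomes, PLAU on 10, PLAUR on 19, PLAT on 8 and SERPINE2 on 2.

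BT549 is a human triple-negative breast cancer cell line of mesenchymal character. The cells received a pool of siRNAs against c-Jun or a control siRNA for 72 hours and then TNFα or vehicle for 6 hours. The 4 groups were c-Jun siRNA with TNFα, c-Jun siRNA with vehicle, control siRNA with TNFα and control siRNA with vehicle, each with 3 Affymetrix arrays of total RNA. All groups are siRNA-transfected cells of 1 line, so no untransfected cells stand behind any comparison. Values are log2 expression per probe set, in which a difference of 1 is a doubling. Nothing in the labels says that the 3 samples of a group came from separate cultures. The p-values therefore rest on the spread between samples that may be technical repeats.

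Plasminogen is a circulating zymogen that plasminogen activators cleave to plasmin, a protease of broad specificity that dissolves fibrin, degrades matrix and activates other proteases. Urokinase (uPA, from PLAU) works mainly at the cell surface, bound to its receptor uPAR (from PLAUR), and tissue-type activator (tPA, from PLAT) is best known for its work on fibrin. SERPINE2 encodes protease nexin-1, a secreted serpin that inhibits thrombin, urokinase, tPA and plasmin. Urokinase and its receptor are well known for their part in the invasion of breast cancer cells. PLAU is a textbook target of AP-1, the transcription factor that contains c-Jun, through an enhancer that lies well upstream of its promoter.

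Promoter windows of 250 bases before to 50 bases after a start site are shown for 3 of the genes, because the knockdown bears on AP-1. They come from RefSeq (GRCh38.p14). Each was searched on both strands for the AP-1 motif TGANTCA, the CRE motif TGACGTCA, the NF-kB consensus and the Sp1 motif GGGCGG, and capitals mark every match. For PLAU and SERPINE2, which have 2 windows each, the one with more matches is shown. PLAUR is read from the minus strand of chr19:43670120-43670419, PLAU from the plus strand of chr10:73910882-73911181 and SERPINE2 from the minus strand of chr2:224038591-224038890.
PLAUR: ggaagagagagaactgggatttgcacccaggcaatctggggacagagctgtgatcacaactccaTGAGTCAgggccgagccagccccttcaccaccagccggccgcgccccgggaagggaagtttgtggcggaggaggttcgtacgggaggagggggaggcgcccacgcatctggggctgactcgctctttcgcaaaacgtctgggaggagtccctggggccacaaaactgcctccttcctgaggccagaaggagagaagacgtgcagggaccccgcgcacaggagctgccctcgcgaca
PLAU: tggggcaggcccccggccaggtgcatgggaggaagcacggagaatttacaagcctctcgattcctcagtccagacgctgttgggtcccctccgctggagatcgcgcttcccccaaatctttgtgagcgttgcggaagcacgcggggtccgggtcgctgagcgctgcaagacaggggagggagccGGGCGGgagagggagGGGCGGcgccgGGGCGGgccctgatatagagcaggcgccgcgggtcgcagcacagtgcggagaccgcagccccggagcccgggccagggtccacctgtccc
SERPINE2: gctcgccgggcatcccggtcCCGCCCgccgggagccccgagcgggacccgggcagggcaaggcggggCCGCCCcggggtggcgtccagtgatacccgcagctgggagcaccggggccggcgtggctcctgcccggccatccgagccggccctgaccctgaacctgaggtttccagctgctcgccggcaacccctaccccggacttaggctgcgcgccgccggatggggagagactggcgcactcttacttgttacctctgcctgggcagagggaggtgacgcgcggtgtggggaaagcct
The PLAUR window held the AP-1 motif at positions -186 to -180 from the start site, a palindromic match. That motif is in 7.71% of all 35116 promoter windows of this length. Neither PLAU window and neither SERPINE2 window held it. The shown PLAU window had 3 Sp1 matches, at -66 to -61, -51 to -46 and -40 to -35, and the shown SERPINE2 window had 2, while 45.0% of all windows have at least 1. The CRE motif (1.85% of windows) and the NF-kB consensus (11.3%) had no match in any of the 5 windows of PLAU, PLAUR and SERPINE2. Matches describe the letters of these windows only, and the PLAU enhancer lies outside them.

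The array medians ran from 5.62 to 5.68, and precision is limited by having 3 arrays a group. The targeted gene, JUN, was at 61.1% of its control siRNA level with TNFα and at 69.5% with vehicle. TNFα itself raised JUN, by 0.53 with c-Jun siRNA and by 0.72 with control siRNA. The JUN mean was thus 10.36 with c-Jun siRNA and TNFα, against 10.35 with control siRNA and vehicle. In c-Jun siRNA cells with TNFα, JUN RNA was lowered only against control siRNA cells of the same treatment. With c-Jun siRNA and vehicle its mean was 9.83, below control siRNA with vehicle and with TNFα (11.07). Among markers of the line, VIM (12.66), CD44 (12.73), SPARC (12.20), FN1 (11.40) and CDH2 (9.78) lay above the array medians, by 12-array mean log2 level. ESR1, PGR, CDH1 and EPCAM lay between 3.72 and 4.87. Of the 5 measured leukocyte markers PTPRC, CD3E, CD14 and ITGAM lay between 3.81 and 5.05, below the array medians, and CD68 was at 9.58, above them. Of the 5 endothelial markers PECAM1, CDH5, KDR and VWF lay between 3.80 and 4.67, below the medians, and TEK was at 6.30, above them. The name of c-Jun siRNA TNFα replicate 3 reads as a second run of replicate 1. These arrays differed by an SD of 0.121 over genes, against 0.119 to 0.142 for the other pairs of arrays within a group. They were the closest pair of their own group, where the other pairs differed by 0.133 and 0.142. Averaging that pair, or leaving out the array so named, changed none of the 20 calls on the 4 genes. The array names also hold a position code whose column (5, 7 or 9) is unevenly spread over the groups. All c-Jun siRNA vehicle arrays are in column 5, and no c-Jun siRNA TNFα array is.

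PLAT, the tPA gene, had a TNFα response that was far smaller with c-Jun siRNA than with control siRNA, and it fell with c-Jun siRNA in both treatments. Its log2 expression was 5.97, 6.17 and 5.97 with c-Jun siRNA and TNFα, and 5.18, 5.44 and 5.34 with c-Jun siRNA and vehicle. Control siRNA arrays read 8.09, 7.69 and 7.99 with TNFα and 5.90, 5.96 and 5.92 with vehicle. The 3 arrays with control siRNA and TNFα stood far above the other 9, and the 4 groups did not overlap. The share of all genes separated in this way was not counted. In the pairwise comparisons, groups were fully apart in 38.5% to 45.3% of all genes. The order was control siRNA with TNFα, c-Jun siRNA with TNFα, control siRNA with vehicle, c-Jun siRNA with vehicle. The middle groups of that order lay close together, at means of 6.04 ± 0.114 in TNFα-treated c-Jun siRNA cells and 5.93 ± 0.0339 in vehicle-treated control siRNA cells (SD, n = 3 each). That difference of 0.11 is no larger than the SD of the first and was not tested.

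With c-Jun siRNA, TNFα raised PLAT 1.64-fold, a log2 fold change of 0.715 ± 0.0973 (SE, limma adjusted p = 1.18e-05). With control siRNA the rise was 3.99-fold, or 2.00 ± 0.0973 (adjusted p = 8.14e-12), and 111 of the 17958 genes had a larger one. The difference between these responses was -1.28 ± 0.138 (adjusted p = 7.32e-06), and 15 genes had a more negative one. c-Jun siRNA left PLAT at 27.0% of its control siRNA level under TNFα (-1.89 ± 0.0973, adjusted p = 5.79e-11), the third-deepest fall among all genes. Below it were SEMA6A at -2.02 and SNAI2 at -2.01, which were named after their values were seen. With vehicle the knockdown left 65.6% (-0.61 ± 0.0973, adjusted p = 8.35e-05). In the c-Jun siRNA vehicle group PLAT read below the array medians, so the array background may limit how exactly folds against that group are known.

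SERPINE2, whose product inhibits both activators, was the other member that rose with TNFα under both siRNAs. It read 11.44, 11.36 and 11.37 with c-Jun siRNA and TNFα, and 10.66, 10.59 and 10.67 with c-Jun siRNA and vehicle. With control siRNA it read 11.69, 11.73 and 11.74 with TNFα and 10.80, 10.75 and 10.72 with vehicle. All 6 TNFα arrays lay above all 6 vehicle arrays, and the 4 groups did not overlap. The share of all genes with such a separation was not counted. Pairwise, TNFα and vehicle arrays were fully apart in 38.9% of all genes with c-Jun siRNA and 45.3% with control siRNA. The rise was 0.75 ± 0.0334 with c-Jun siRNA (adjusted p = 3.21e-12) and 0.96 ± 0.0334 with control siRNA (adjusted p = 5.52e-14), or 1.68-fold and 1.95-fold. The difference between the responses was -0.21 ± 0.0472 (adjusted p = 0.00923). That call was lost without the mean-variance trend of the fit (adjusted p = 0.0697), and its adjusted p lay between 0.00382 and 0.0697 over 27 alternatives.

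The knockdown lowered SERPINE2 under TNFα, to 79.5% of the control siRNA level (-0.33 ± 0.0334, adjusted p = 4.00e-07). With vehicle it was at 92.2% (-0.12 ± 0.0334, adjusted p = 0.0125). The vehicle call was lost within position column 5 (-0.078, adjusted p = 0.369), without the mean-variance trend (adjusted p = 0.0578), without control siRNA vehicle replicate 1 (-0.094, adjusted p = 0.0704) and with replicate 2 of c-Jun siRNA and vehicle left out (-0.092, adjusted p = 0.0681). Its adjusted p ran from 0.00669 to 0.369 over 29 alternatives.

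PLAU, the urokinase gene, had its highest levels with c-Jun siRNA. It read 10.78, 10.80 and 10.80 with c-Jun siRNA and TNFα, and 10.70, 10.72 and 10.84 with c-Jun siRNA and vehicle. Control siRNA arrays read 10.17, 9.99 and 10.12 with TNFα and 9.86, 9.87 and 9.79 with vehicle. All 6 c-Jun siRNA arrays lay above all 6 control siRNA arrays. The share of all genes with such a separation was not counted. Pairwise, c-Jun and control siRNA arrays were fully apart, in either direction, in 38.5% of all genes with TNFα and 39.2% with vehicle. The c-Jun siRNA groups overlapped each other, and the control siRNA groups did not. c-Jun siRNA raised PLAU 1.62-fold with TNFα (0.70 ± 0.0445, adjusted p = 9.26e-10) and 1.88-fold with vehicle (0.91 ± 0.0445, adjusted p = 2.19e-11). A larger rise was found in 204 genes with TNFα and in 141 with vehicle.

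With c-Jun siRNA the TNFα difference of PLAU was 0.044 ± 0.0445 (adjusted p = 0.539), with a 95% interval from -0.049 to 0.138. With control siRNA TNFα raised it by 0.25 ± 0.0445 (adjusted p = 0.000156). The test of the difference between the responses gave -0.21 ± 0.0629 and did not pass (adjusted p = 0.0645). It passed when the 30% of genes with the lowest means were dropped (adjusted p = 0.0393) and without control siRNA TNFα replicate 2 (-0.26, adjusted p = 0.0128), and its adjusted p lay between 0.0128 and 0.179 over 27 alternatives. The PLAU and PLAT changes with c-Jun siRNA had opposite signs in both treatments.

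PLAUR, the urokinase receptor gene, varied least. It read 10.93, 10.89 and 10.92 with c-Jun siRNA and TNFα, and 10.89, 10.92 and 10.81 with c-Jun siRNA and vehicle. Control siRNA arrays read 10.81, 10.74 and 10.76 with TNFα and 10.87, 10.86 and 10.93 with vehicle. The control siRNA TNFα arrays were the lowest 3 of the 12, and the other 3 groups overlapped one another. The share of all genes with 1 group apart from the other 3 was not counted. Over the 12 arrays PLAUR departed from its own mean by a root mean square of 0.063 log2 units, against 0.416 for PLAU, 0.447 for SERPINE2 and 0.983 for PLAT. Its promoter window holds the AP-1 motif shown above.

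With c-Jun siRNA the TNFα difference of PLAUR was 0.041 ± 0.0339 (adjusted p = 0.433; 95% interval -0.03 to 0.113). With control siRNA PLAUR fell by 0.12 ± 0.0339 with TNFα (adjusted p = 0.0117). That call was lost with each array centred on its median (-0.082, adjusted p = 0.0703), without control siRNA vehicle replicate 3 (-0.093, adjusted p = 0.0697) and without control siRNA TNFα replicate 2 (-0.10, adjusted p = 0.0522), and its adjusted p lay between 0.00675 and 0.0703 over 29 alternatives. c-Jun siRNA raised PLAUR by 0.14 ± 0.0339 with TNFα (adjusted p = 0.00314). With vehicle the difference was -0.013 ± 0.0339 (adjusted p = 0.844; 95% interval -0.084 to 0.058). The difference between the TNFα responses was 0.16 ± 0.0480 and did not pass (adjusted p = 0.0692; between 0.0398 and 0.202 over 27 alternatives).

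**Figure D1:**
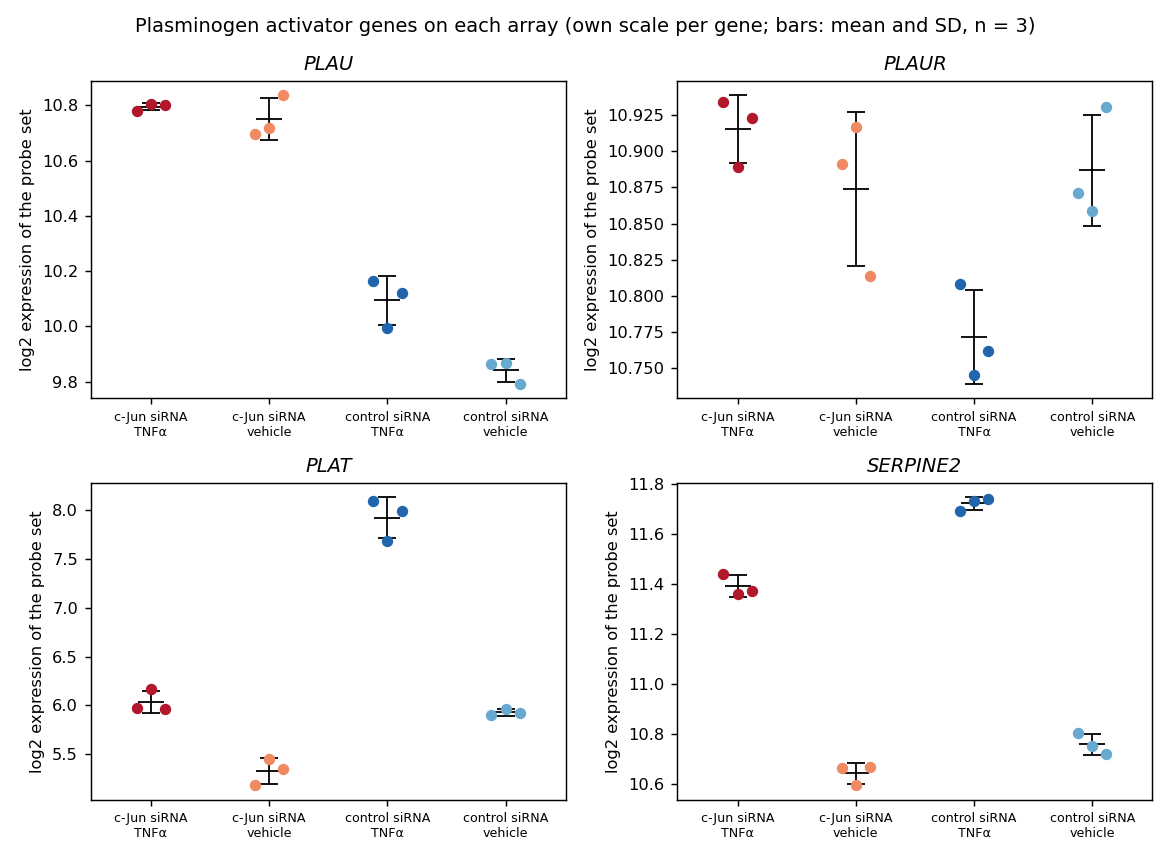
Log2 expression of each measured gene on the 12 arrays, by group, with the group mean and SD (n = 3); each panel has its own vertical scale. PLAT stands at 7.69 to 8.09 with control siRNA and TNFα and at or under 6.17 elsewhere, while every c-Jun siRNA array of PLAU lies above every control siRNA array. The share of all genes with such separations was not counted.

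Set side by side, TNFα with c-Jun siRNA raised 2 of the 4 measured members, PLAT and SERPINE2, and lowered none, where 29.6% of all genes were called, 11.3% higher and 18.3% lower. With control siRNA TNFα changed all 4, where 35.7% of all genes were called. Of these, 3 were higher, as were 13.8% of all genes, and 1 was lower, as were 21.9%. For c-Jun siRNA with TNFα 2 were higher (PLAU, PLAUR) and 2 lower (PLAT, SERPINE2), where 28.5% of all genes were called, 14.1% higher and 14.4% lower. With vehicle 1 was higher (PLAU) and 2 were lower (PLAT, SERPINE2), where 28.9% of all genes were called, 14.4% higher and 14.5% lower. The interaction called 2, both lower, where 5.47% of all genes were called, 1.88% higher and 3.59% lower. Groups of arrays were fully apart in 2 members for TNFα with c-Jun siRNA (38.9% of all genes), 4 for TNFα with control siRNA (45.3%), 4 for c-Jun siRNA with TNFα (38.5%) and 3 for c-Jun siRNA with vehicle (39.2%). With 4 genes these counts describe the members and are no test of the system. The siRNA comparisons share arrays with the TNFα comparisons, so their values are not independent of one another.

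**Figure D2:**
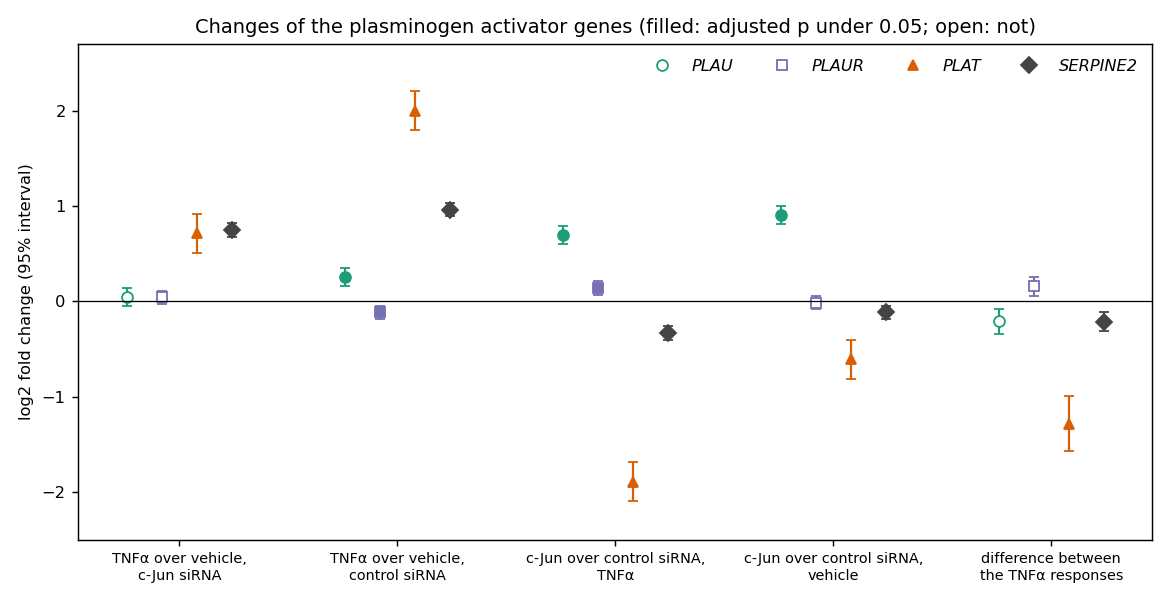
Log2 fold changes of the 4 genes with 95% intervals in the 5 comparisons; filled symbols passed an adjusted p of 0.05 over all genes and open ones did not. PLAT spans 2.00 to -1.89, and the c-Jun siRNA changes of PLAU point up where those of PLAT point down.

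**Figure D3:**
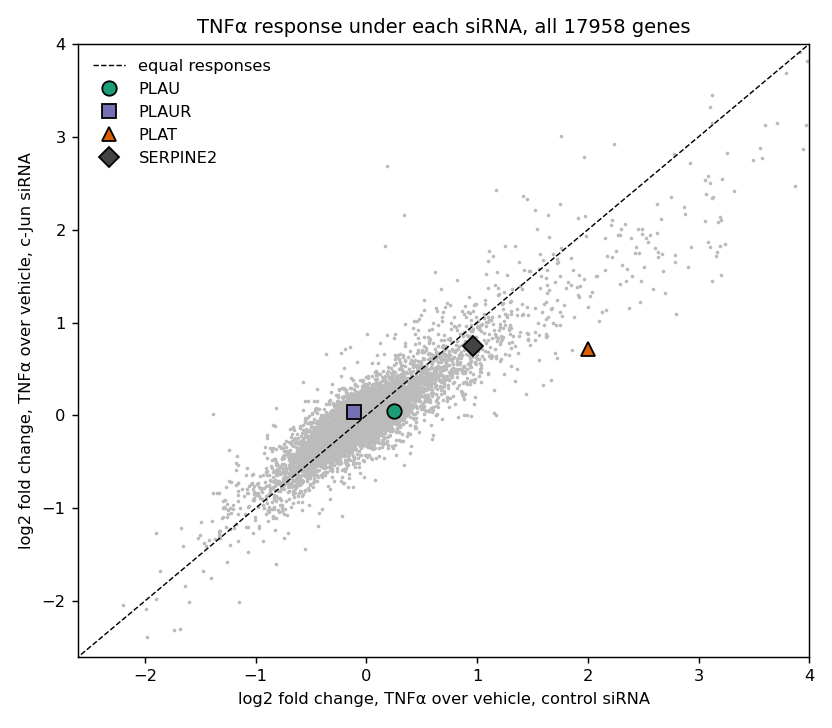
Each gene's log2 fold change with TNFα in c-Jun siRNA cells (vertical) against that in control siRNA cells (horizontal); the axes run from -2.6 to 4, and 19 genes lie outside. PLAT, at 0.715 against 2.00, lies well below the dashed line of equal responses, and SERPINE2, at 0.75 against 0.96, lies near it.

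Within a position column the fits rest on few arrays, and an arm of 1 array is assumed to vary like the other arm. For TNFα with control siRNA in column 7, which holds 2 arrays of each group, the values were 1.91 for PLAT, 0.96 for SERPINE2, 0.19 for PLAU and -0.11 for PLAUR, and all 4 passed. In column 5, with 3 c-Jun siRNA and 1 control siRNA vehicle arrays, the knockdown values were 0.96 for PLAU and -0.60 for PLAT, which passed, and -0.057 for PLAUR, which did not. For the knockdown under TNFα, column 7, with 1 c-Jun siRNA and 2 control siRNA arrays, gave 0.75 for PLAU, -1.67 for PLAT, -0.38 for SERPINE2 and 0.14 for PLAUR, of which PLAUR did not pass. Column 9 gave 0.62, -2.12, -0.29 and 0.12 for the same genes, on 2 c-Jun siRNA arrays and 1 control siRNA array, and none passed. For TNFα with c-Jun siRNA no column holds both groups. With the column as a fixed block that comparison gave 0.69 for PLAT (adjusted p = 0.03), 0.69 for SERPINE2 (adjusted p = 1.50e-06), 0.076 for PLAUR and -0.059 for PLAU, and the last 2 did not pass.

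The summed level of the 5 endothelial markers was higher with c-Jun siRNA, and TEK ran from 5.68 to 6.80 over the 12 arrays. On the log2 scale it ran from 7.42 to 7.54 with c-Jun siRNA and TNFα and from 7.475 to 7.495 with c-Jun siRNA and vehicle, against 7.13 to 7.14 with control siRNA and TNFα and 6.97 to 7.06 with control siRNA and vehicle. PECAM1, CDH5, KDR and VWF stayed under the array medians on every array. Summed levels of the 5 measured leukocyte markers, most of which came from CD68, ran from 9.76 to 9.80, 9.74 to 9.80, 9.72 to 9.79 and 9.64 to 9.72 in the same groups. The summed level of ESR1, PGR, CDH1 and EPCAM ran from 6.49 to 6.69 and from 6.35 to 6.43 in the c-Jun siRNA groups, with TNFα and with vehicle, against 6.26 to 6.36 and 6.04 to 6.37 in the control siRNA groups, in the same order. With TNFα these ranges of c-Jun and control siRNA arrays did not overlap, and with vehicle they did. The summed level of the line's markers VIM, CDH2, FN1, SPARC and CD44 was lower with c-Jun siRNA, without overlap in either treatment. With TNFα it ran from 14.366 to 14.426, against 14.445 to 14.481 with control siRNA. With vehicle it ran from 14.314 to 14.365, against 14.387 to 14.422. The part of these shifts in the changes of the 4 genes was not tested. In bulk RNA, fewer cells that express a gene and less RNA per cell cannot be told apart.

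The genes most like each member were found by centring every gene on its own mean and taking the smallest root mean square difference over the 12 arrays. Changes that these genes share with a member follow from that choice and are no separate result. PLAU was closest to GALNT1, a glycosyltransferase gene (0.0595 log2 units), DGKE (0.0675) and VPS36 (0.0808), which rose with c-Jun siRNA and vehicle by 0.90, 0.74 and 0.87. SERPINE2 was closest to STARD4, a sterol carrier gene (0.0526), ZNFX1 (0.0725) and NFKBIB, an inhibitor of NF-kB (0.0728), which rose with TNFα and control siRNA by 0.92, 1.101 and 0.94. PLAT had no gene as near in log2 units, but the measure is not scaled to a gene's own spread. That spread was largest for PLAT among the members (root mean square 0.983). Its closest genes were the nuclear receptor NR4A3 (0.252), RNF150 (0.323) and the transcription factor KLF5 (0.329). Like PLAT they fell with c-Jun siRNA under TNFα, with log2 fold changes of -1.29, -1.45 and -1.21. PLAUR was closest to SPART (0.028), PGAM5 (0.0341) and USE1 (0.0357), but many genes that vary little lie near one another by this measure. Among the members themselves the smallest such difference was 0.398, between PLAU and PLAUR. It is close to the 0.416 by which PLAU departs from its own mean, so it does not show that these genes are alike.

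Other inhibitors of plasminogen activators and plasmin were dim, and 1 of 7 was called. Of 8 listed genes 7 were measured, and their group means were all at or under 5.84. SERPINI1, which encodes the tPA inhibitor neuroserpin, changed by -0.41 ± 0.0988 with TNFα and c-Jun siRNA (adjusted p = 0.00344) and by -0.42 ± 0.0988 with TNFα and control siRNA (adjusted p = 0.00229). It was the only gene called among the 7 in the 5 comparisons. TNFα called 29.6% of all genes with c-Jun siRNA and 35.7% with control siRNA. The knockdown comparisons and the interaction called 0 of 7 in limma, also at an unadjusted p under 0.05. Over all genes the knockdown called 28.5% with TNFα and 28.9% with vehicle, and the interaction 5.47%.

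Among plasminogen and the proteases that activate pro-urokinase, all 9 listed genes were measured. The plasminogen gene itself, PLG, read 3.76 to 3.78 in the group means, below the array medians, and was named after its values were seen. CTSL, encoding the lysosomal protease cathepsin L, fell with c-Jun siRNA, at -0.34 ± 0.0356 under TNFα (adjusted p = 7.24e-07) and -0.33 ± 0.0356 with vehicle (adjusted p = 9.44e-07). It rose with TNFα by 0.11 with c-Jun siRNA and by 0.12 with control siRNA. CTSB, encoding cathepsin B, rose by 0.15 ± 0.0280 with c-Jun siRNA under TNFα (adjusted p = 0.000471) and by 0.10 with TNFα under c-Jun siRNA. ST14, encoding matriptase, rose by 0.21 with TNFα under c-Jun siRNA (adjusted p = 0.04) from a level under the array medians. The interaction called 0 of the 9 in limma, where 5.47% of all genes were called, and 2 at an unadjusted p under 0.05.

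Receptors and partners at the cell surface changed in both directions. Of the 21 listed and measured, c-Jun siRNA raised 7 and lowered 4 with TNFα, where 14.1% of all genes were higher and 14.4% lower, and raised 8 and lowered 4 with vehicle, where 14.4% were higher and 14.5% lower. TNFα raised 4 and lowered 7 with c-Jun siRNA, where 11.3% of all genes were higher and 18.3% lower, and raised 4 and lowered 6 with control siRNA, where 13.8% were higher and 21.9% lower. The medians of these 4 comparisons were -0.024, -3.33e-05, -0.019 and -0.059, against 0.0011, -0.0073, -0.016 and -0.023 over all genes. VLDLR, a receptor that takes up complexes of urokinase with its inhibitors, fell with TNFα, with log2 fold changes of -1.21 ± 0.0766 under c-Jun siRNA (adjusted p = 4.79e-10) and -1.065 ± 0.0766 under control siRNA (adjusted p = 2.12e-09). c-Jun siRNA raised it by 0.47 with TNFα and by 0.61 with vehicle.

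The integrin chains that bind vitronectin, a ligand shared with uPAR, did not move together. With c-Jun siRNA ITGB5 rose by 0.74 ± 0.0530 under TNFα (adjusted p = 4.81e-09) and by 0.63 ± 0.0530 with vehicle (adjusted p = 3.34e-08). ITGB3 fell, at -0.63 ± 0.0824 under TNFα (adjusted p = 8.95e-06) and -0.76 ± 0.0824 with vehicle (adjusted p = 9.76e-07). ITGAV, their common alpha chain, rose with TNFα by 0.15 under c-Jun siRNA and by 0.56 under control siRNA, and the difference was -0.41 ± 0.0483 (adjusted p = 2.34e-05). ITGA5, the fibronectin receptor chain, had a difference of -0.25 ± 0.0460 (adjusted p = 0.00208). These 2 integrin genes were the interaction calls among the 21, where 5.47% of all genes were called. EGFR, a receptor that signals together with uPAR, rose with TNFα by 0.72 and 0.71 under c-Jun and control siRNA. ITGAM, a leukocyte integrin chain that binds uPAR, rose by 0.69 and 0.78, with group means of 4.685 to 5.465.

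Several substrates of the cascade fell with c-Jun siRNA, among them proteases, a growth factor and a matrix protein. Of 17 listed and measured, c-Jun siRNA lowered 8 and raised 2 with TNFα, where 14.4% of all genes were lower and 14.1% higher, and lowered 5 and raised 2 with vehicle, where 14.5% were lower and 14.4% higher. The medians were -0.097 and -0.053, against 0.0011 and -0.0073 over all genes. TNFα raised 4 and lowered 6 with c-Jun siRNA (median 0.053, against -0.016 over all genes), and raised 6 and lowered 5 with control siRNA (median -0.037, against -0.023). Over all genes TNFα raised 11.3% and lowered 18.3% with c-Jun siRNA, and raised 13.8% and lowered 21.9% with control siRNA. The interaction called 5, all lower, as were 3.59% of all genes (median -0.086, against 0.0066).

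MMP9, encoding a gelatinase whose proform is activated in a cascade that plasmin starts, had the largest interaction of the 17 genes. Its mean was 6.18 with TNFα and 5.95 with vehicle in c-Jun siRNA cells, against 7.29 with TNFα and 5.85 with vehicle in control siRNA cells. The interaction was -1.21 ± 0.137 (adjusted p = 1.44e-05), and c-Jun siRNA lowered MMP9 under TNFα (-1.105 ± 0.0968, adjusted p = 6.42e-08). The collagenase gene MMP1 rose with TNFα by 1.96 under c-Jun siRNA and by 2.63 under control siRNA (interaction -0.67 ± 0.0940, adjusted p = 0.000155). MMP3, the stromelysin gene, rose by 1.74 and 1.69 under the same siRNAs and was not among the interaction calls. Unlike MMP9, MMP3 rose with c-Jun siRNA, by 0.53 under TNFα (adjusted p = 0.00161) and by 0.48 with vehicle (adjusted p = 0.00365). MMP13 had an interaction of -0.50 (adjusted p = 0.0268), with all group means at or under 4.53.

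Growth factor and matrix substrates made up much of the rest. c-Jun siRNA lowered LTBP1, which holds latent TGF-beta in the matrix, at -0.85 ± 0.0482 under TNFα (adjusted p = 2.05e-10) and -0.77 ± 0.0482 with vehicle (adjusted p = 6.87e-10). PDGFC, a growth factor precursor that tPA cleaves, fell with c-Jun siRNA under TNFα (-0.76 ± 0.0850, adjusted p = 1.38e-06). With vehicle the PDGFC change was -0.28 (adjusted p = 0.0166). MMP14, a membrane-bound protease gene, fell with c-Jun siRNA and vehicle (-0.67 ± 0.0454, adjusted p = 1.82e-09). Under TNFα the MMP14 change was -0.55 (adjusted p = 2.75e-08). BDNF, whose proform plasmin can cleave, rose with c-Jun siRNA and vehicle by 0.79 ± 0.0559 (adjusted p = 3.39e-09). Under TNFα the BDNF rise was 0.53 (adjusted p = 6.87e-07). PDGFD, a growth factor precursor that urokinase cleaves, fell by 0.56 with TNFα under c-Jun siRNA (adjusted p = 0.00149). With control siRNA the TNFα change of PDGFD was similar (-0.51, adjusted p = 0.00244), and the gene was not among the interaction calls.

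**Figure D4:**
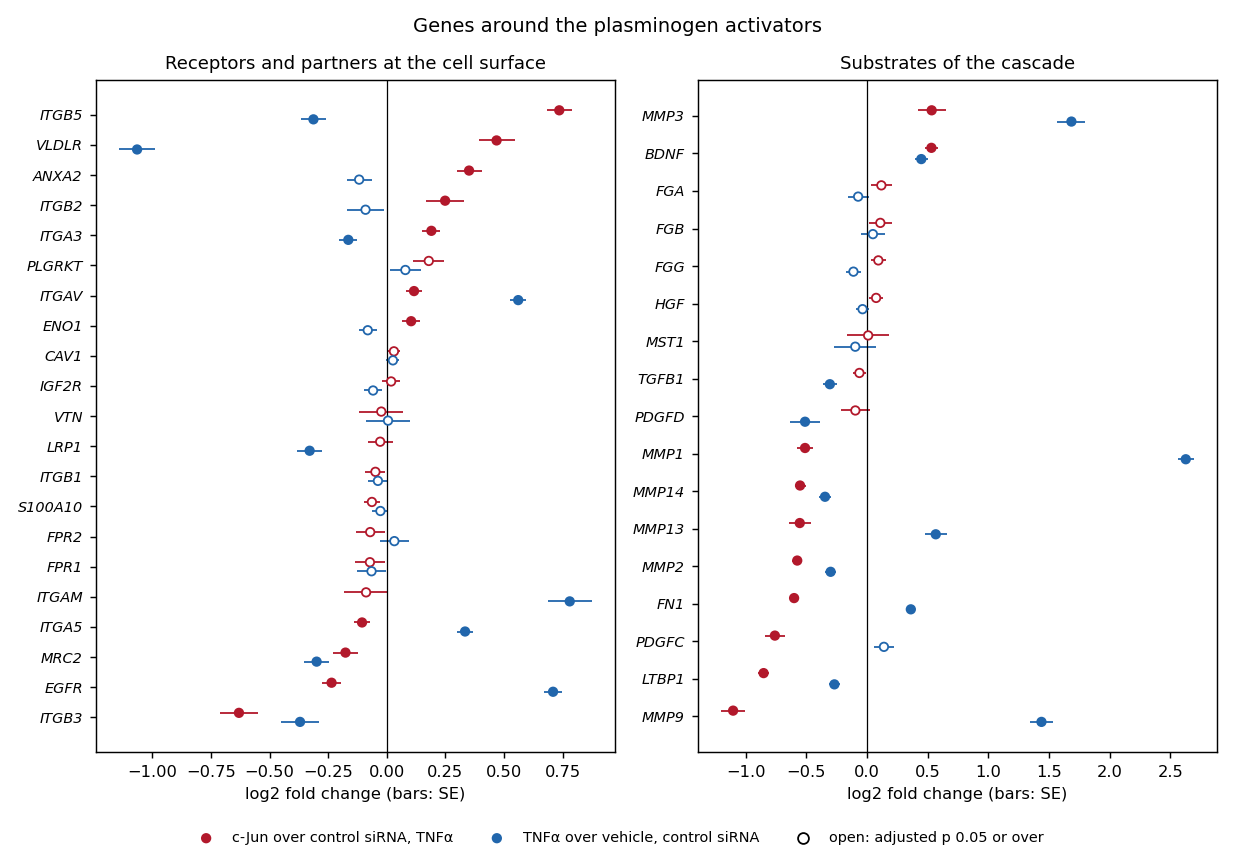
Log2 fold changes with SE of the 21 cell surface genes and 17 substrate genes, for c-Jun over control siRNA under TNFα (red) and for TNFα over vehicle with control siRNA (blue); open symbols did not pass an adjusted p of 0.05. MMP9 lies at -1.105 in red and 1.44 in blue, and ITGB5 and ITGB3 lie on opposite sides of 0 in red.

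Of the 12 other clade B serpins, the family of SERPINB2, 10 were measured, and 2 were called in at least 1 of the 5 comparisons. TNFα with control siRNA and c-Jun siRNA with vehicle each called 1 higher and 1 lower, where 35.7% and 28.9% of all genes were called. TNFα with c-Jun siRNA called 1 (29.6% of all genes), and so did the interaction (5.47%). SERPINB8, encoding a serpin that inhibits furin and whose gene is on the same chromosome as SERPINB2, rose with TNFα by 1.58 ± 0.0528 under c-Jun siRNA (adjusted p = 6.26e-14) and by 2.35 ± 0.0528 under control siRNA (adjusted p = 9.76e-17). The difference was -0.78 ± 0.0747 (adjusted p = 2.07e-06), and c-Jun siRNA raised it by 0.72 with vehicle. SERPINB1, an elastase inhibitor gene, changed by -0.26 with c-Jun siRNA and vehicle and by -0.50 with TNFα and control siRNA. c-Jun siRNA under TNFα called 0 of the 10 in limma, and also 0 at an unadjusted p under 0.05. That comparison called 28.5% of all genes.

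Of 17 listed relatives of PLAUR in the LY6/PLAUR domain family, 15 were measured. LY6K rose with c-Jun siRNA by 0.71 ± 0.0518 under TNFα (adjusted p = 5.27e-09) and by 0.70 ± 0.0518 with vehicle (adjusted p = 6.50e-09), and LY6E by 0.34 and 0.47. LYPD3, a PLAUR-like surface protein gene, fell by 0.28 with c-Jun siRNA under TNFα (adjusted p = 0.00771) and rose by 0.38 with TNFα under control siRNA (adjusted p = 0.000403). In all, c-Jun siRNA raised 3 and lowered 1 of the 15 with TNFα (median 0.082) and raised 3 with vehicle (median -0.010), against medians of 0.0011 and -0.0073 over all genes. Over all genes 14.1% were higher and 14.4% lower with TNFα, and 14.4% were higher with vehicle, so these counts are near the background and are no result about the family.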

How the data were processed

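Per the submitters' processing notes, the authors used Affymetrix Expression Console 1.1 and PLIER, with no role given for each. The deposited values were used as log2 expression per probe set. That the base is 2 was inferred from the span of the values, 2.27 to 14.0. No quartile differed by more than 0.061 across the arrays, so they were taken to share a scale. The genome build of the probe sets is not given in the sources used here. Of 33297 probe sets 19181 have 1 gene symbol, 2055 several and 12061 none in the probe table. Symbols were updated through Entrez identifiers, and the probe set with the highest 12-array mean stood for each gene. limma 3.58.1 in R 4.3.3 fitted 1 mean per group to all 12 arrays and 17958 genes, with 8 residual degrees of freedom and a mean-variance trend. Tests were two-sided, with Benjamini-Hochberg adjustment over all genes of a comparison and calls at an adjusted p under 0.05. Tables and plots used Python 3.11.15, pandas 2.3.3 and matplotlib 3.10.9, and the fit was tested on simulated data.

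The members and the 6 gene lists were chosen with earlier results of these data known. Named are the members, JUN, up to 3 called genes per list and comparison with the largest absolute change, and the 3 genes nearest each member. Genes named outside that rule are marked in the text. Lists are described by counts and medians, with no test. Alternatives were 2 normalisations, filters on dim genes, a floor of 5, other uses of probe sets, other variance models, array weights, fewer arrays, a stricter threshold, a replicate block, the position column and each array left out. Replicate numbers are shared between groups, but the deviations of same-numbered arrays correlated by -0.059 to 0.088 over genes, with 0 of 18 pairs above 0.1, so they were not taken as pairs.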

Additional observations from a re-analysis of the deposited data

Results flagged for a closer look

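The TNFα responses of PLAT and SERPINE2 differed between the siRNAs by the interaction test across all genes. For PLAT the response with c-Jun siRNA minus that with control siRNA was -1.28 (adjusted p = 7.32e-06). For SERPINE2 it was -0.21 (adjusted p = 0.00923). In both genes the c-Jun siRNA arrays lay below the control siRNA arrays with TNFα and also with vehicle. Arrays were fully apart, in either direction, in 38.5% of all genes with TNFα and 39.2% with vehicle. That separation compares the siRNAs and does not bear on the difference between the TNFα responses. Groups of 3 arrays are too small for a check of single outlying arrays.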

How the results depend on the processing

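Of the 20 results on the 4 genes, 11 kept their side of the threshold under every alternative run, and 542 of 567 single checks kept direction and side. In 3 checks a value near 0 changed sign, called in neither setting: PLAU for TNFα with c-Jun siRNA was -0.059 with the position column as a fixed block, against 0.044, and PLAUR for c-Jun siRNA with vehicle was 0.009 without control siRNA vehicle replicate 3 and 0.017 with replicate 3 of c-Jun siRNA and vehicle left out, against -0.013. Leaving out 1 array at a time gave -0.0345 to 0.017 for that result. The replicate block changed none of the 20 calls: with it the interaction of PLAT was -1.28 and that of SERPINE2 -0.21. PLAT dropped out where the dimmest 50% of genes were left out, so it has no value there. At an adjusted p under 0.01 the calls of PLAUR for TNFα with control siRNA (-0.12) and of SERPINE2 for c-Jun siRNA with vehicle (-0.12) were lost, and the interaction called 553 genes against 983. Centring arrays on their medians took the PLAUR call for TNFα with control siRNA (-0.082). Without the mean-variance trend SERPINE2 lost its calls for c-Jun siRNA with vehicle (-0.12) and for the interaction (-0.21). The position column as a fixed block gave 2376 genes for TNFα with c-Jun siRNA against 5320, 3448 for c-Jun siRNA with vehicle against 5183, and 531 for the interaction, and SERPINE2 for c-Jun siRNA with vehicle at -0.078 was not called. Within columns fewer arrays enter: column 5 called 2264 genes for c-Jun siRNA with vehicle, SERPINE2 (-0.078) not among them. For c-Jun siRNA with TNFα column 7, with 1 c-Jun siRNA array, called 930 of 5116, PLAUR (0.14) not among them. In that comparison column 9 called 0 in limma (4156 at an unadjusted p under 0.05), with PLAU at 0.62, PLAUR at 0.12, PLAT at -2.12 and SERPINE2 at -0.29. After the 30% or 50% of genes with the lowest means were dropped, the interactions of PLAU (-0.21; adjusted p = 0.0393 and 0.03) and PLAUR (0.16; 0.0475 and 0.0398) passed, where fewer genes were tested. Leaving out 1 array at a time gave -0.13 to -0.093 for PLAUR with TNFα and control siRNA, -0.14 to -0.092 for SERPINE2 with c-Jun siRNA and vehicle, -0.26 to -0.17 for the PLAU interaction and 0.13 to 0.18 for that of PLAUR, which passed with replicate 2 of c-Jun siRNA and vehicle left out (adjusted p = 0.0468). Why calls changed between settings was not tested. PLAT lay near the array medians with vehicle, where the background may limit its folds.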
